A study of Mus musculus with 6 samples.

Results

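The collagen genes were examined in RNA sequencing of the hippocampus from 3 male WT mice, whose genotype is Ube3a m+/p+, and 3 male mice that are Ube3a m-/p+, with 1 library per mouse. They were taken as every gene symbol that consists of Col, a number, a and a second number, which selected 44 of the 25239 gene symbols counted. All mice were C57BL/6 and 6 to 8 weeks old. Ube3a m-/p+ animals model Angelman syndrome and carry a maternal *Ube3a* allele that is not functional and an intact paternal allele, which is silent in most mature neurons, and the WT mice carry both. The values were reads counted per gene in whole hippocampus, so that fewer cells of a type and less RNA per cell cannot be told apart.

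Collagens are secreted or membrane-bound proteins of the extracellular matrix, built from 3 chains that wind into a triple helix. The fibrillar collagens (types I, II, III, V, XI, XXIV and XXVII) form banded fibres, type IV forms the sheet of the basement membrane around vessels and beneath the meninges, and type VI forms beaded filaments at the border between basement membrane and fibres. The hippocampus holds little fibrillar collagen, most of its collagen being that of vessels, meninges and choroid plexus, while a few members such as *Col25a1* and *Col19a1* are made by neurons. The remaining members were grouped as multiplexins (types XV and XVIII, found at basement membranes), fibril-associated collagens with interrupted triple helices (FACIT), network-forming collagens (types VIII and X), transmembrane collagens (types XIII, XVII, XXIII and XXV) and others (types VII, XXVI and XXVIII).

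The reads on genes numbered 7293272 to 8675252 in WT mice and 8871052 to 11314409 in Ube3a m-/p+ mice. Expression is given as CPM, the count of a gene scaled to 1000000 reads on genes. The targeted gene *Ube3a* had 104, 141 and 151 CPM in WT mice 1, 2 and 3 and 96.8, 82.9 and 80.6 CPM in Ube3a m-/p+ mice 1, 2 and 3, without overlap (log2 fold change -0.58, edgeR adjusted p = 0.0363, and -0.20 with adjusted p = 0.240 after correction for GC content and length). The 8 hippocampal neuron markers examined were detected in every library, with summed levels of 953 to 1100 CPM. Base composition and choroid plexus content differed between the libraries. Across 14201 genes, the deviation of a library from the mean of the 6 rose with the GC content of the transcript in Ube3a m-/p+ mice 2 and 3 (Spearman's rho 0.53 in both), fell with it in WT mice 2 and 3 (-0.51 and -0.57), and was nearly unrelated in the mice numbered 1 (0.05 and 0.06). The choroid plexus gene *Ttr*, the transthyretin gene, had 522, 58.8 and 1987 CPM in WT mice 1, 2 and 3 and 2049, 1439 and 63.0 CPM in Ube3a m-/p+ mice 1, 2 and 3. Each genotype thus held libraries with much and with little choroid plexus RNA.

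All 44 collagen genes had counts. The level per length, in CPM per kilobase of the longest annotated transcript and averaged over the 6 mice, ran from 0.0302 in *Col10a1* to 19.0 in *Col4a2*. *Col4a2* and *Col4a1* (14.2 CPM per kilobase), the ubiquitous chains of the basement membrane, held the top of the order. *Col25a1*, a neuronal transmembrane collagen found in amyloid plaques, followed with 9.96 CPM per kilobase, *Col11a2* with 9.77 and *Col9a3* with 9.04, and the means of these 3 genes differed by less than the spread of *Col9a3* between mice. *Col6a1* came next with 5.77, ahead of *Col19a1* (4.46) and *Col11a1* (3.81). The classic fibre genes *Col1a1* (2.25), *Col1a2* (2.86) and *Col3a1* (0.703) lay below them. The 44 genes together made up 613, 569 and 608 CPM in WT mice 1, 2 and 3 and 679.9, 798 and 663 CPM in Ube3a m-/p+ mice 1, 2 and 3. The sums of the genotypes did not overlap.

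**Figure D1:**
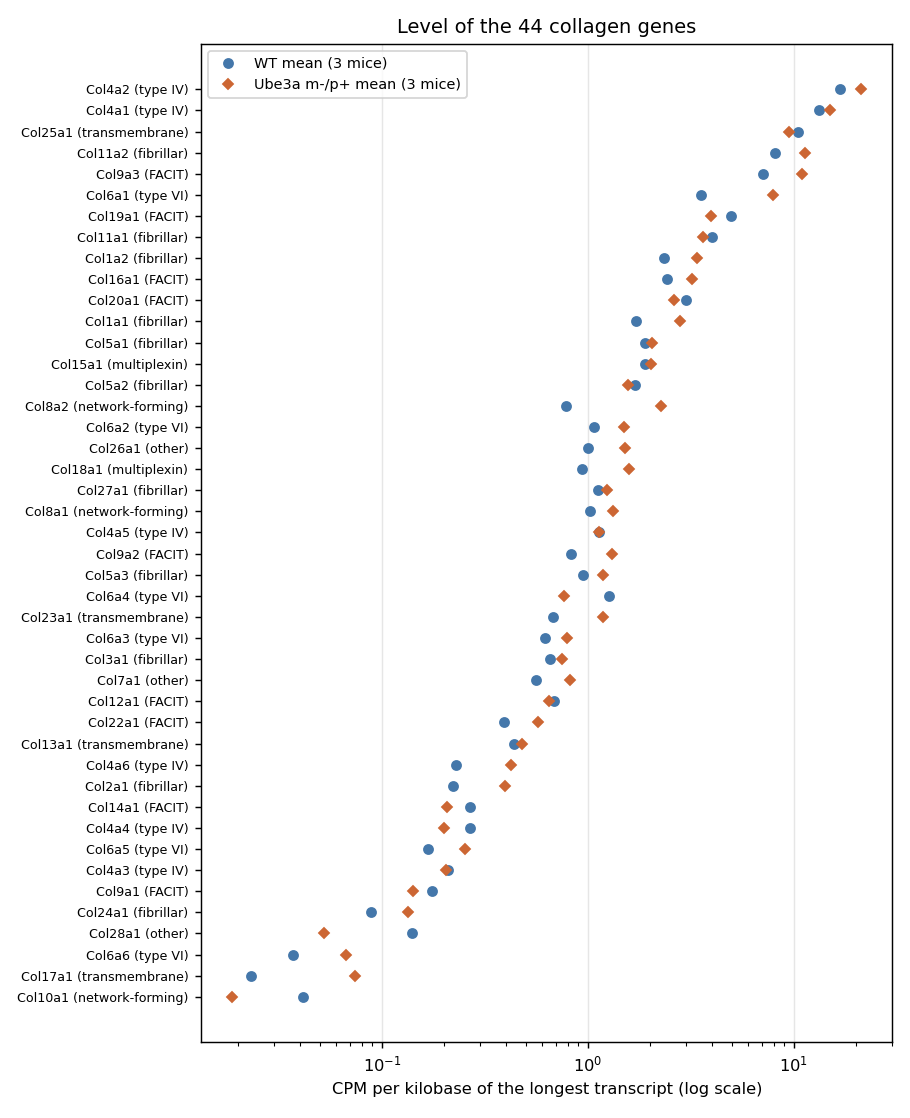
Mean level of each of the 44 collagen genes in CPM per kilobase of the longest transcript (log axis), with blue circles for WT and orange diamonds for Ube3a m-/p+ mice (3 mice each). *Col4a2* and *Col4a1* are at the top, and *Col6a1* and *Col8a2* show wide gaps between the genotypes.

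The comparison of the genotypes asked which collagen genes differ when the maternal *Ube3a* is lost. Of the 44 genes, 38 passed the filter on low counts and were tested, and 3 of them were differentially expressed (adjusted p under 0.05 with over 1.2-fold change), all with higher expression in Ube3a m-/p+ mice. These were *Col6a1*, *Col1a1* and *Col11a2*. Among all 14445 genes tested, 2.01% were differentially expressed, 1.02% with higher and 0.99% with lower expression. In 12 of the 38 genes every Ube3a m-/p+ mouse exceeded every WT mouse, against 10.8% of all genes, and in 1 gene every Ube3a m-/p+ mouse was below, against 14.2%. At an unadjusted p below 0.05 stood 14 of the 38 genes with higher and 2 with lower expression, where 12.2% and 12.4% of all genes did. For each of the 13 genes without overlap an exact permutation test gave a two-sided p of 0.1, the smallest that 3 mice against 3 allow. Over these 38 genes the log2 fold change had a median of 0.36 (28 above 0 and 10 below), beside 0.0025 for all genes tested.

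**Figure D2:**
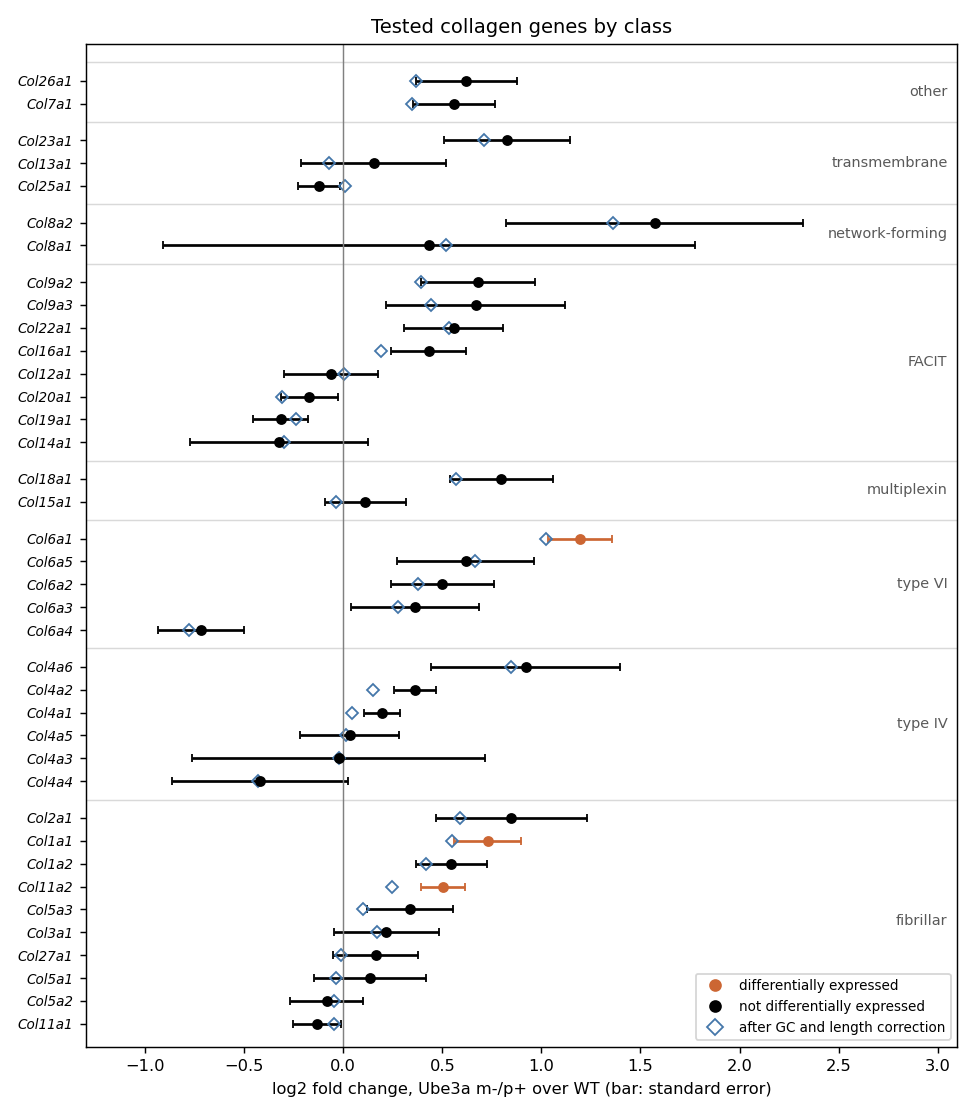
log2 fold change of the 38 tested collagen genes, Ube3a m-/p+ over WT, by class, with circles for the edgeR fit (bars are standard errors, orange marks the 3 differentially expressed genes) and open blue diamonds for the fit corrected for GC content and transcript length. *Col6a1* lies at 1.195 and stays at 1.02 with the correction, while *Col11a2* moves from 0.50 to 0.24.

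The fold changes moved with base composition. The longest transcripts of the 38 genes had a median GC content of 55.9%, beside 49.9% for all genes tested, and 30 of the 38 lay above that. In the 14201 genes with a known GC content, the log2 fold change rose with GC content, from a median of -0.35 in transcripts with 36 to 38% GC to 0.25 in those with 60 to 62%. Across the 38 collagen genes, which share the same libraries, Spearman's rho between log2 fold change and GC content was 0.53. When the relation to GC content and length was removed from each library, the median over the 38 genes was 0.18 and 26 were above 0. *Col6a1* was then the only differentially expressed member, where 0.648% of all genes were. The relation to GC content ran in opposite directions in mice 2 and 3 of the genotypes. The correction can therefore also remove a difference between genotypes that follows GC content, and the 2 cannot be told apart here. In the mice numbered 1 alone, whose libraries had nearly no relation to GC content, the median log2 ratio of Ube3a m-/p+ to WT was 0.21 over the 38 genes, with 26 above 0, and -0.002 over all genes tested, with 49.5% above 0. The class medians were 0.085 for the fibrillar (5 of 10 above 0), 0.40 for the type IV (5 of 6) and 0.14 for the type VI members (4 of 5). Within type IV, *Col4a1* and *Col4a2* were at 0.017 and -0.035, and the rarer *Col4a3* to *Col4a6* at 0.40 to 1.83. The largest ratios were those of *Col8a1* (2.41), *Col4a3* (1.83) and *Col8a2* (1.73). *Ttr* stood at 2049 CPM in Ube3a m-/p+ mouse 1 and 522 CPM in WT mouse 1, so choroid plexus content differed between them. The log2 ratio of *Ube3a* itself was -0.096 between these 2 mice. They give no test.

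**Figure D3:**
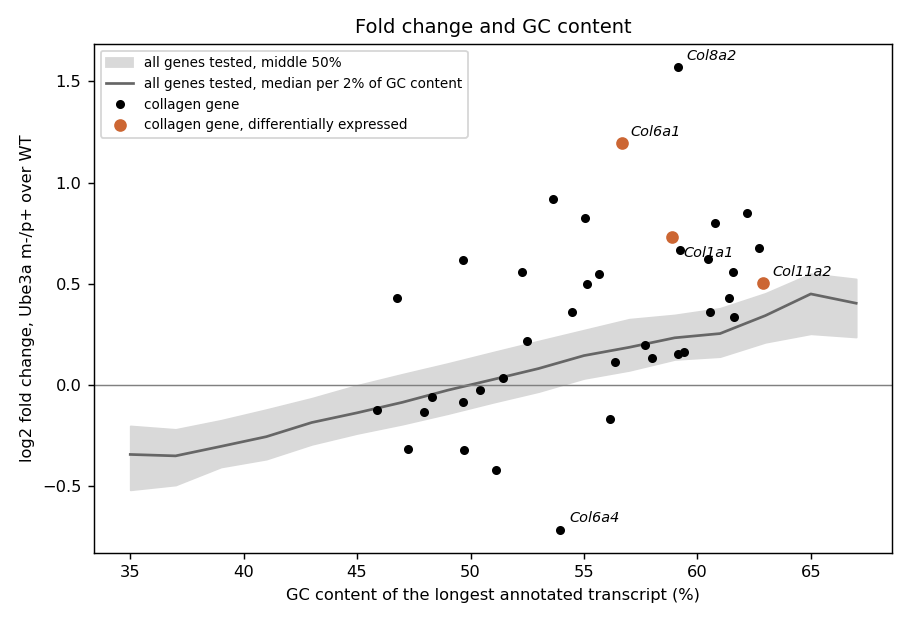
log2 fold change (Ube3a m-/p+ over WT) against GC content in the longest transcript, with the 38 tested collagen genes as points (orange for the 3 differentially expressed) and all tested genes as the grey line (median per 2% of GC content) and band (middle 50%). *Col11a2* lies just above the band, while *Col6a1* and *Col8a2* lie far above it and *Col6a4* far below.

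Type VI collagen held the member with the lowest p of the 38, *Col6a1*, and the only tested member that was lower in every Ube3a m-/p+ mouse, *Col6a4*. *Col6a1*, which encodes a chain of the common type VI filament, was at 110, 126 and 118 reads in WT mice 1, 2 and 3, whereas the counts were 235, 467 and 320 for the Ube3a m-/p+ mice in the same order. In CPM these were 12.96, 14.5 and 16.2 in WT mice and 26.5, 41.3 and 30.4 in Ube3a m-/p+ mice. The lowest Ube3a m-/p+ mouse was well above the highest WT mouse. The means were 14.6 ± 1.61 CPM (SD, n = 3) and 32.7 ± 7.66 CPM (SD, n = 3). The log2 fold change was 1.195 (standard error 0.16, edgeR adjusted p = 0.0241), and its unadjusted p of 1.78e-06 ranked 1 among the 14445 genes. After correction for GC content and length it was 1.02 (edgeR adjusted p = 0.00303), and the log2 ratio between the mice numbered 1 was 1.00. Without WT mouse 2, WT mouse 3 or Ube3a m-/p+ mouse 2, the log2 fold change was 1.196, 1.27 and 1.00 with adjusted p = 0.232, 0.0598 and 0.190 (edgeR). In these 3 fits 0 genes of the whole table were differentially expressed, with 2075, 2159 and 2128 genes at an unadjusted p below 0.05.

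The partner chains of *Col6a1* did not pass the test. *Col6a2*, whose gene lies next to *Col6a1* on chromosome 10, had 5.89, 5.99 and 3.98 CPM in WT mice and 6.54, 10.3 and 5.32 CPM in Ube3a m-/p+ mice. The genotypes overlapped, through mouse 3 of the Ube3a m-/p+ genotype, and the log2 fold change of 0.50 (standard error 0.26, edgeR adjusted p = 0.245) did not pass the threshold. *Col6a3*, the large chain, had 5.54, 9.22 and 4.11 CPM in WT mice and 6.09, 11.9 and 5.99 CPM in Ube3a m-/p+ mice, again with overlap (log2 fold change 0.36, edgeR adjusted p = 0.523). Per length, *Col6a1* exceeded *Col6a2* by ratios of 2.64, 2.90 and 4.88 in WT mice and 4.85, 4.78 and 6.85 in Ube3a m-/p+ mice. These ratios overlapped between the genotypes (exact permutation test, two-sided p = 0.3). The summed level of all 6 type VI genes was 36.9, 39.8 and 35.4 CPM in WT mice and 48.6, 71.2 and 50.4 CPM in Ube3a m-/p+ mice, without overlap. Without *Col6a1* it was 19.2 to 25.2 CPM and 19.96 to 29.9 CPM, and the genotypes overlapped.

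The stretches before the starts of the neighbouring genes *Col6a1* and *Col6a2*, and of *Col11a2*, are shown so that the base composition and motifs of a gene that rose after the correction for GC content, of its neighbour that did not pass the test, and of a gene that lost its call can be read side by side. They are the parts of the 250 bases before the RefSeq start (GRCm38.p6) that hold no exon of GENCODE M21, written along the gene. Capitals mark GGGCGG (the GC box bound by Sp1) and TATAAA (the TATA box) on either strand, so that a GC box on the other strand reads CCGCCC.
Col6a1, minus strand, chr10:76726169-76726294: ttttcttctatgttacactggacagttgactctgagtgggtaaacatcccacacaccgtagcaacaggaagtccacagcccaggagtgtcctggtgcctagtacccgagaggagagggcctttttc
Col6a2, minus strand, chr10:76623631-76623880: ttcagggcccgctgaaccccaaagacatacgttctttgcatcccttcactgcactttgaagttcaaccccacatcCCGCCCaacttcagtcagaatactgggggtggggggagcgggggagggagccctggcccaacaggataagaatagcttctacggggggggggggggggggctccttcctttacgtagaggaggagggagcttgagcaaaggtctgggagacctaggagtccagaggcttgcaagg
Col11a2, plus strand, chr17:34038888-34039137: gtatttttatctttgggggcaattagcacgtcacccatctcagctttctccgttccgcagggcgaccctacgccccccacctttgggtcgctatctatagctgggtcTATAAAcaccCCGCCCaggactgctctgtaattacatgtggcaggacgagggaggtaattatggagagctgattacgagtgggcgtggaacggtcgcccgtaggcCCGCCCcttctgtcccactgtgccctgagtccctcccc
The *Col6a2* stretch holds 1 GC box, the *Col11a2* stretch 2 GC boxes and 1 TATA box, and the shorter *Col6a1* stretch, which ends 124 bases before the RefSeq start, holds neither motif. The GC content of the printed stretches was 51.6% for *Col6a1*, 59.2% for *Col6a2* and 57.6% for *Col11a2*. Over the full 250 bases, the GC box was present at 22 of the 38 collagen starts in the table (35 genes, 57.9%) and at 32.7% of all 32851 starts. The GC box holds only G and C, and the median GC content of these 250 bases was 59.0% at the collagen starts and 52.4% at all starts. The nuclear receptor motif AGGTCA, searched on both strands because the study concerned retinoic acid receptors, was present at 8 of the 38 collagen starts (21.1%) and at 14.0% of all starts. Motif matches describe letters in a window and not binding.

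The chains that can take the place of *Col6a3* had fold changes of opposite sign and did not pass the test. *Col6a4* had 10.7, 8.18 and 9.05 CPM in WT mice and 6.76, 4.15 and 5.99 CPM in Ube3a m-/p+ mice. Every Ube3a m-/p+ mouse was below every WT mouse. Its log2 fold change of -0.72 (standard error 0.22, edgeR adjusted p = 0.0703) missed the threshold, and it was -0.78 after correction for GC content and length (edgeR adjusted p = 0.0728). Exons of *Gm47575* and *Gm36993* on the opposite strand overlap those of *Col6a4* over 162 and 127 bp of 8526 bp, and the strand setting of the counting is not given in the sources used here. *Col6a5* had 1.06, 1.84 and 1.78 CPM in WT mice and 2.03, 2.65 and 2.38 CPM in Ube3a m-/p+ mice, without overlap on 111 counts in all (log2 fold change 0.62, edgeR adjusted p = 0.278). *Col6a6* was not tested, with 26 counts in the 6 libraries.

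Among the fibrillar collagens, 10 of 11 were tested, 2 rose and 0 fell (edgeR; 4 higher and 0 lower at an unadjusted p below 0.05, beside 12.2% and 12.4% of all genes), and the median log2 fold change was 0.28. Their summed level was 161, 144 and 144 CPM in WT mice and 169.7, 198 and 180.0 CPM in Ube3a m-/p+ mice, without overlap. *Col11a2* was the largest part of this sum, at 46.1 to 54.8 CPM in WT mice and 61.9 to 77.9 CPM in Ube3a m-/p+ mice. Without *Col11a2* the sums of the genotypes overlapped. *Col1a1*, a chain of type I collagen, the main collagen of fibrous tissue, had 12.1, 8.53 and 9.74 CPM in WT mice and 15.3, 19.3 and 15.1 CPM in Ube3a m-/p+ mice. Every Ube3a m-/p+ mouse was above every WT mouse. The log2 fold change was 0.73 (standard error 0.17, edgeR adjusted p = 0.0416). After correction for GC content and length it was 0.55, and the call was lost (edgeR adjusted p = 0.0750). Its partner *Col1a2* had 13.3, 12.0 and 12.3 CPM in WT mice and 16.0, 23.6 and 14.5 CPM in Ube3a m-/p+ mice, without overlap but with Ube3a m-/p+ mouse 2 far above the rest. The log2 fold change was 0.55 (standard error 0.18, edgeR adjusted p = 0.0838). The ratio of *Col1a1* to *Col1a2* per length was 0.725 ± 0.0909 (SD, n = 3) in WT mice and 0.846 ± 0.102 (SD, n = 3) in Ube3a m-/p+ mice (exact permutation test, two-sided p = 0.2). *Col3a1*, the type III chain that joins type I in soft tissue, showed no comparable difference, with 2.77 to 4.59 CPM in WT mice and 3.61 to 4.86 CPM in Ube3a m-/p+ mice (log2 fold change 0.22, standard error 0.27, edgeR adjusted p = 0.647).

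Type XI collagen, a minor fibrillar collagen elsewhere, had the highest RNA level per length of the fibrillar types here, and 1 of its chains rose, while the difference between the chains was not tested. *Col11a2* had 54.8, 46.1 and 47.0 CPM in WT mice and 61.9, 66.8 and 77.9 CPM in Ube3a m-/p+ mice, without overlap. WT mice averaged 49.3 ± 4.76 CPM (SD, n = 3), while Ube3a m-/p+ mice averaged 68.9 ± 8.17 CPM (SD, n = 3). On the log2 scale this was 0.50 (standard error 0.11, edgeR adjusted p = 0.0387). Its transcript had the highest GC content of the tested members, 62.9%, and the correction for GC content and length brought the log2 fold change to 0.24 (edgeR adjusted p = 0.204). In the mice numbered 1 the log2 ratio was 0.18 (0.175). *Col11a1*, with 48.0% GC, had 30.9, 30.9 and 30.4 CPM in WT mice and 30.8, 23.5 and 28.9 CPM in Ube3a m-/p+ mice, with overlap (log2 fold change -0.13, edgeR adjusted p = 0.519). *Col1a1* and *Col11a2* lost their calls without WT mouse 2, WT mouse 3, Ube3a m-/p+ mouse 2 or Ube3a m-/p+ mouse 3, with adjusted p between 0.136 and 0.272 for *Col1a1* and between 0.155 and 0.251 for *Col11a2* (edgeR), while their log2 fold changes stayed at 0.61 to 0.89 and 0.40 to 0.59 over all 6 such fits.

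Of the type V chains, which control the width of type I fibres, *Col5a1* and *Col5a2* varied more between mice than between genotypes. *Col5a1* had 13.9, 16.7 and 17.4 CPM in WT mice and 16.1, 25.4 and 10.3 CPM in Ube3a m-/p+ mice, so that the Ube3a m-/p+ genotype held both the highest and the lowest mouse. The log2 fold change was 0.13 (edgeR adjusted p = 0.811), and it turned to -0.26 without Ube3a m-/p+ mouse 2. *Col5a2* (log2 fold change -0.08) and *Col5a3* (0.34) also overlapped, with adjusted p of 0.813 and 0.347 (edgeR). The cartilage collagen gene *Col2a1*, at 91 counts in all, had 1.18, 1.38 and 0.823 CPM in WT mice and 1.80, 2.56 and 1.71 CPM in Ube3a m-/p+ mice, without overlap (log2 fold change 0.85, standard error 0.38, edgeR adjusted p = 0.183). *Col27a1* had a log2 fold change of 0.16 (edgeR adjusted p = 0.674), and *Col24a1*, with 43 counts, was not tested.

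**Figure D4:**
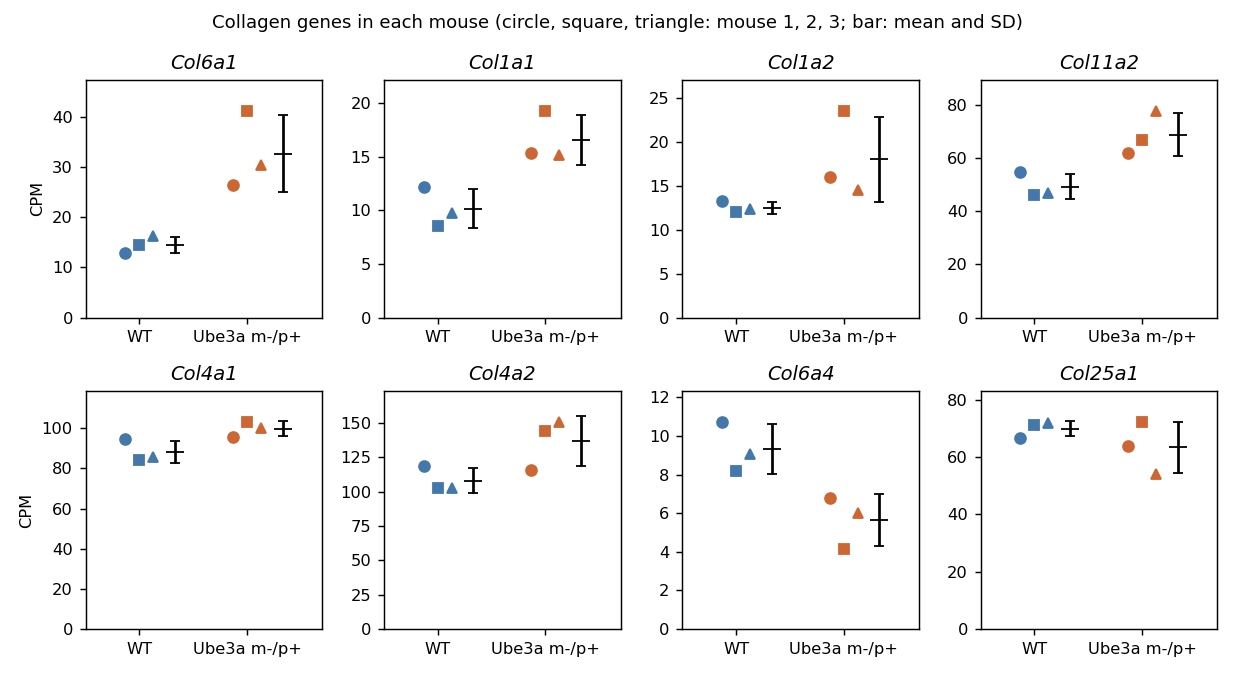
CPM of 8 collagen genes in each mouse (blue WT, orange Ube3a m-/p+, with circle, square and triangle for mice 1, 2 and 3), with the mean and SD of the 3 mice as a bar. *Col6a1*, *Col1a1* and *Col11a2* do not overlap between the genotypes, the *Col4a2* values of the mice numbered 1 lie side by side, and *Col6a4* is lower in all 3 Ube3a m-/p+ mice.

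In the type IV class all 6 genes were tested, none was differentially expressed by edgeR, and 2 were higher at an unadjusted p below 0.05 (12.2% of all genes were), *Col4a1* and *Col4a2*, while DESeq2 called *Col4a2* (9.96% of its tested genes were called). These genes stand head to head on chromosome 8, where their exons overlap by 22 bp on opposite strands, and encode the chains of most basement membranes. *Col4a2* had 119, 103 and 103 CPM in WT mice and 116, 144 and 151 CPM in Ube3a m-/p+ mice. Ube3a m-/p+ mouse 1 lay below WT mouse 1, and the other Ube3a m-/p+ mice were above every WT mouse. The log2 fold change was 0.36 (standard error 0.11, edgeR adjusted p = 0.0688, DESeq2 adjusted p = 0.0326), and 0.15 after correction for GC content and length (edgeR adjusted p = 0.413). *Col4a1* had 94.6, 84.4 and 85.6 CPM in WT mice and 95.7, 103 and 100.3 CPM in Ube3a m-/p+ mice. The genotypes stood apart only by the narrow gap between the mice numbered 1. Its log2 fold change was 0.20 (0.195, standard error 0.09, edgeR adjusted p = 0.189) and 0.04 after the correction. Per length, *Col4a2* stood at 1.26 ± 0.0296 times *Col4a1* (SD, n = 3) in WT mice and 1.41 ± 0.151 times (SD, n = 3) in Ube3a m-/p+ mice (exact permutation test, two-sided p = 0.3).

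Of the rarer type IV chains, *Col4a3*, *Col4a4* and *Col4a5* varied between mice more than between genotypes. *Col4a3* and *Col4a4*, chains of the basement membrane of the kidney filter, had 0.589, 1.38 and 3.43 CPM and 2.36, 1.96 and 3.84 CPM in WT mice 1, 2 and 3, and 3.38, 1.503 and 0.380 CPM and 3.27, 2.12 and 0.665 CPM in Ube3a m-/p+ mice 1, 2 and 3. WT mouse 3 and Ube3a m-/p+ mouse 1 were the highest for both genes, and Ube3a m-/p+ mouse 3 the lowest. *Col4a5* had 5.65, 5.65 and 10.97 CPM in WT mice and 7.67, 8.49 and 6.08 CPM in Ube3a m-/p+ mice, with its highest value in WT mouse 3 (log2 fold change 0.03, edgeR adjusted p = 0.951). *Col4a6* had 1.41, 0.807 and 2.33 CPM in WT mice and 4.06, 3.36 and 1.05 CPM in Ube3a m-/p+ mice (log2 fold change 0.92, standard error 0.48, edgeR adjusted p = 0.244). With *Ttr* as a covariate it was 0.68. The sum of all type IV genes was 223, 197 and 209 CPM in WT mice and 230.1, 263 and 259 CPM in Ube3a m-/p+ mice, without overlap. For *Col4a1* and *Col4a2* alone the sum was 213.4, 187.1 and 188.3 CPM in WT mice. It was 211.7, 247.4 and 250.9 CPM in Ube3a m-/p+ mice, with overlap through the mice numbered 1. *Col4a3* to *Col4a6* summed to 10.01, 9.80 and 20.57 CPM in WT mice and 18.37, 15.47 and 8.18 CPM in Ube3a m-/p+ mice, also with overlap. Over the same mice, the summed markers of endothelium (8 genes, 280.0 to 291 CPM in WT and 242 to 264 CPM in Ube3a m-/p+ mice) did not overlap, with 6 of the 8 genes below 0 in log2 fold change. None was differentially expressed by edgeR (1 higher and 2 lower at an unadjusted p below 0.05, beside 12.2% and 12.4% of all genes). DESeq2 called 2 in opposite directions, *Cldn5* higher (log2 fold change 0.46, DESeq2 adjusted p = 0.0478) and *Slco1a4* lower (-0.41, DESeq2 adjusted p = 0.0289), where it called 9.96% of its tested genes. After correction for GC content and length, *Cldn5* was at 0.14 (edgeR adjusted p = 0.571) and *Slco1a4* at -0.17 (edgeR adjusted p = 0.369). The sum of 9 markers of pericytes and smooth muscle was 259.5 to 280.4 CPM in WT and 224 to 240.1 CPM in Ube3a m-/p+ mice, and this gap rested on *Rgs5*. Without it the sum was 132 to 151 CPM and 134 to 156 CPM, with overlap, and 4 of the 8 remaining genes were above 0. *Rgs5* had a log2 fold change of -0.51 (edgeR adjusted p = 0.0387), and of -0.29 after correction for GC content and length, where the call was lost (edgeR adjusted p = 0.0750). Each of the endothelial and pericyte markers had counts in every library, and the part of vessel content in the type IV levels was not tested.

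The multiplexins *Col15a1* and *Col18a1* add to basement membranes, and *Col18a1* gives rise to endostatin. *Col18a1* had 5.77, 3.46 and 6.44 CPM in WT mice and 7.67, 11.9 and 7.03 CPM in Ube3a m-/p+ mice, without overlap. Its log2 fold change of 0.80 (standard error 0.26, edgeR adjusted p = 0.0840) missed the threshold and was 0.57 after the correction (edgeR adjusted p = 0.257). *Col15a1* overlapped, with 8.83, 12.1 and 8.50 CPM in WT mice and 9.02, 13.4 and 8.94 CPM in Ube3a m-/p+ mice (log2 fold change 0.11, edgeR adjusted p = 0.775).

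In 9 of the 44 members the 3 libraries with the most *Ttr*, WT mouse 3 and Ube3a m-/p+ mice 1 and 2, exceeded the other 3. These were *Col8a1*, *Col8a2*, *Col9a3*, *Col12a1*, *Col4a3*, *Col4a5* and *Col4a6*, which make 7 of the 38 tested members beside 4.17% of all genes tested, and the untested *Col17a1* and *Col24a1*. The part of choroid plexus RNA in their levels was not tested beyond a fit with *Ttr* as a covariate. *Col8a1* and *Col8a2*, the chains of the short type VIII collagen of vessel walls and corneal basement membrane, were tested, and neither was differentially expressed by edgeR or passed an unadjusted p of 0.05. *Col8a1* had 1.65, 0.807 and 13.3 CPM in WT mice 1, 2 and 3 and 10.9, 8.48 and 0.951 CPM in Ube3a m-/p+ mice 1, 2 and 3. Its level differed between mice of 1 genotype far more than between the genotypes. *Col8a2* had 3.18, 1.38 and 5.62 CPM in WT mice and 11.7, 14.5 and 3.14 CPM in Ube3a m-/p+ mice. Its fold change was 1.57 on the log2 scale, with a standard error of 0.75 (edgeR adjusted p = 0.276). *Col9a3*, a chain of the FACIT collagen IX, had 19.9, 13.95 and 30.7 CPM in WT mice and 39.0, 43.1 and 18.4 CPM in Ube3a m-/p+ mice (log2 fold change 0.67, standard error 0.45, edgeR adjusted p = 0.429), and its exons overlap those of *Tcfl5* on the opposite strand over 234 of 3853 bp. The 8 choroid plexus markers had summed levels of 614, 103 and 2202 CPM in WT mice and 2293, 1626 and 109.5 CPM in Ube3a m-/p+ mice, all 8 detected in every library. With the log2 level of *Ttr* as a covariate, chosen after the data were seen, *Col8a2* (log2 fold change 1.31, edgeR adjusted p = 0.0331) and *Col9a3* (0.53, edgeR adjusted p = 0.0467) passed the threshold, and *Col6a1*, *Col1a1* and *Col11a2* kept their calls at 1.18, 0.71 and 0.51, where 2.15% of all genes were called.

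**Figure D5:**
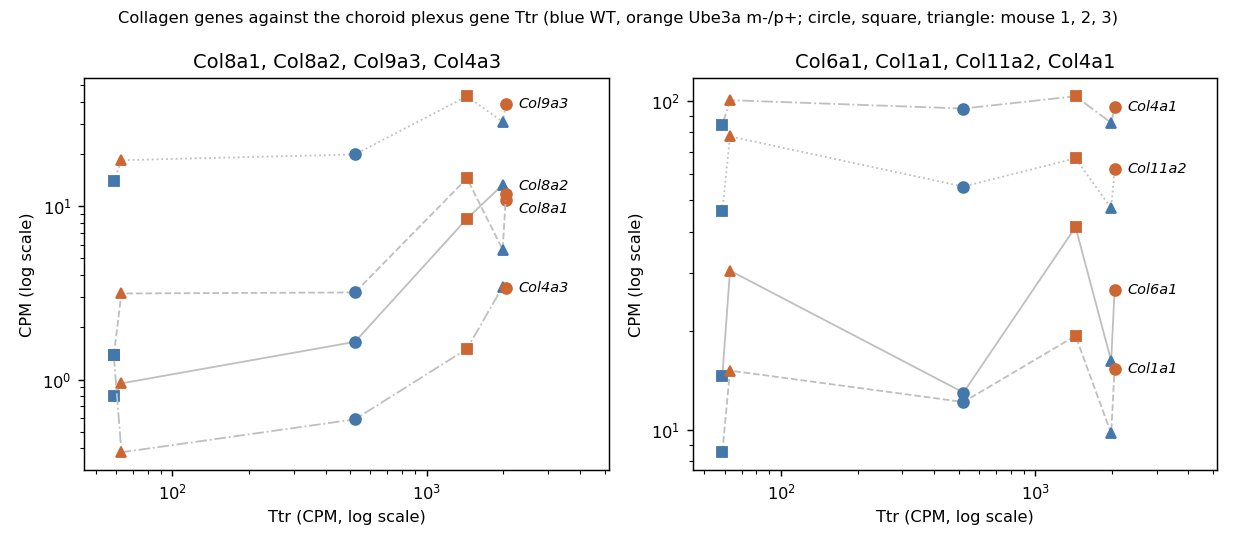
CPM of collagen genes against the CPM of the choroid plexus gene *Ttr* in each mouse (both axes log, blue WT, orange Ube3a m-/p+, with circle, square and triangle for mice 1, 2 and 3, and lines joining the libraries of a gene). *Col8a1*, *Col9a3* and *Col4a3* in the left panel are higher in the libraries with more *Ttr*, whereas *Col6a1*, *Col1a1*, *Col11a2* and *Col4a1* in the right panel do not follow it.

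Of the 9 FACIT genes, 8 were tested and none was differentially expressed by edgeR, with 3 higher and 1 lower at an unadjusted p below 0.05 (12.2% and 12.4% of all genes) and a median log2 fold change of 0.19 (0.185). DESeq2 called none either, but it gave no adjusted p for *Col9a2*, *Col12a1*, *Col14a1* and *Col22a1*. *Col9a2* had 2.94, 2.65 and 1.65 CPM in WT mice and 3.49, 4.15 and 3.90 CPM in Ube3a m-/p+ mice, without overlap (log2 fold change 0.68, edgeR adjusted p = 0.163). *Col22a1*, known from tissue junctions, had 3.65, 3.92 and 2.74 CPM in WT mice and 5.75, 5.13 and 4.28 CPM in Ube3a m-/p+ mice, also without overlap (log2 fold change 0.56, edgeR adjusted p = 0.180). The collagen XVI gene *Col16a1* overlapped (log2 fold change 0.43, edgeR adjusted p = 0.175). *Col19a1*, which interneurons make and which takes part in synapse formation, had 24.6, 27.6 and 28.9 CPM in WT mice and 25.1, 21.9 and 17.4 CPM in Ube3a m-/p+ mice, overlapping only through the mice numbered 1 (log2 fold change -0.32, standard error 0.14, edgeR adjusted p = 0.171). *Col12a1*, *Col14a1* and *Col20a1* had log2 fold changes of -0.06, -0.32 and -0.17, all with overlap.

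The transmembrane collagens were led by *Col25a1*, with 66.9, 71.2 and 71.9 CPM in WT mice and 63.8, 72.3 and 54.3 CPM in Ube3a m-/p+ mice. The genotypes overlapped, and the log2 fold change of -0.12 (standard error 0.11, edgeR adjusted p = 0.493) became 0.01 after correction for GC content and length. *Col23a1* had 3.65, 4.96 and 2.88 CPM in WT mice and 5.52, 10.3 and 4.28 CPM in Ube3a m-/p+ mice, with overlap and a log2 fold change of 0.82 (standard error 0.32, edgeR adjusted p = 0.132). *Col13a1* differed by less than its spread (log2 fold change 0.15, standard error 0.37). In the remaining class, *Col7a1*, the collagen of anchoring fibrils, had 5.65, 5.65 and 4.25 CPM in WT mice and 8.23, 7.07 and 7.51 CPM in Ube3a m-/p+ mice, without overlap (log2 fold change 0.56, edgeR adjusted p = 0.114). *Col26a1* had 3.06, 2.42 and 2.88 CPM in WT mice and 4.28, 4.42 and 3.99 CPM in Ube3a m-/p+ mice, also without overlap (log2 fold change 0.62, edgeR adjusted p = 0.150). After the correction these were 0.35 and 0.37, with adjusted p of 0.470 and 0.571 (edgeR). The members below the filter besides *Col24a1* and *Col6a6* were *Col9a1*, *Col10a1*, *Col17a1* and *Col28a1*, with 34, 5, 15 and 21 counts in the 6 libraries.

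The genes that make, assemble, bind and break down collagen were read from 5 lists. Of 58 genes, 51 were tested and none was differentially expressed by edgeR (8 higher and 2 lower at an unadjusted p below 0.05, beside 12.2% and 12.4% of all genes). DESeq2 called 1 of them, where it called 9.96% of the 9567 genes to which it gave an adjusted p. Their median log2 fold change was 0.13, and 35 were above 0, beside 50.3% of all genes. Of the 18 genes of synthesis and folding, all tested, *Serpinh1*, the chaperone HSP47 that holds the procollagen helix, had 15.2, 16.9 and 12.5 CPM in WT mice and 21.6, 22.9 and 20.3 CPM in Ube3a m-/p+ mice. Every Ube3a m-/p+ mouse was above every WT mouse, and the log2 fold change of 0.55 had an adjusted p of 0.0513 (edgeR), or 0.36 with an adjusted p of 0.196 after the correction. *Fkbp10*, a folding helper, also did not overlap (log2 fold change 0.47, edgeR adjusted p = 0.177). In the opposite direction, *Plod2*, a lysyl hydroxylase, had 12.3 to 15.7 CPM in WT mice and 10.03 to 11.3 CPM in Ube3a m-/p+ mice (log2 fold change -0.37, edgeR adjusted p = 0.158).

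In secretion and cross-linking, 12 of 14 genes were tested. *Loxl1*, an enzyme of the lysyl oxidase family, had 2.83, 2.65 and 2.47 CPM in WT mice and 5.07, 7.16 and 3.99 CPM in Ube3a m-/p+ mice, without overlap. Its log2 fold change was 1.05 (edgeR adjusted p = 0.0541), and 0.79 after the correction (edgeR adjusted p = 0.159). *Adamts3*, a protease that trims procollagen, had 31.0, 38.3 and 38.7 CPM in WT mice and 28.3, 28.6 and 25.7 CPM in Ube3a m-/p+ mice, also without overlap (log2 fold change -0.37, edgeR adjusted p = 0.0800). *Adamts2*, the related protease for types I and III, had 5.88 to 6.17 CPM and 6.18 to 9.54 CPM (log2 fold change 0.34, edgeR adjusted p = 0.322). Among 9 of 11 receptors tested, the adhesion receptor *Adgrg1*, which binds type III collagen, did not overlap (69.8 to 74.0 CPM in WT and 76.4 to 79.8 CPM in Ube3a m-/p+ mice, log2 fold change 0.14, edgeR adjusted p = 0.314), and the platelet receptor *Gp6* had 0 counts in every library. Among 7 of 10 breakdown genes tested, *Mmp2*, a gelatinase, had 2.74 to 3.57 CPM and 3.71 to 4.77 CPM (log2 fold change 0.53, edgeR adjusted p = 0.214). The 5 fibril-associated proteoglycans all overlapped, with *Fmod* at a log2 fold change of 0.99 (edgeR adjusted p = 0.0706) and *Ogn* at -0.63 (edgeR adjusted p = 0.284). *Fmod*, *Ogn* and *Gp6* were picked after their values were seen.

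Markers of meninges and fibroblasts, the cells that make most fibrillar and type VI collagen, were given beside these results from a list without collagens. Of 14 markers, 13 were tested and none was differentially expressed by edgeR, with 4 higher and 0 lower at an unadjusted p below 0.05 (12.2% and 12.4% of all genes). The median log2 fold change was 0.31, with 11 above 0 (50.3% of all genes). DESeq2 gave an adjusted p only for *Islr* (0.259) and *Igf2* (0.734), so it could not call the other markers. Their summed level was 133, 108.5 and 167 CPM in WT mice and 194, 189.8 and 108.8 CPM in Ube3a m-/p+ mice, with overlap, and the part of *Igf2*, also a choroid plexus gene, was 44.2 to 108.6 CPM of it. The tested markers peaked in different mice. *Dcn*, the decorin gene (22.4 CPM, beside 7.77 to 12.9 CPM in the other mice), *Lum*, *Slc6a13*, *Slc22a6*, *Aldh1a2* and *Fmod* were highest in Ube3a m-/p+ mouse 2. That mouse also had the highest *Col6a1*, *Col1a1* and *Col1a2*. *Islr*, *Mgp*, *Igf2* and *Foxd1* were highest in Ube3a m-/p+ mouse 1, *Slc13a3* in Ube3a m-/p+ mouse 3, *Ogn* in WT mouse 3 and *Foxc1* in WT mouse 1. In Ube3a m-/p+ mouse 3 the marker sum was near the lowest of the 6, while *Col6a1* (30.4 CPM), *Col1a1* (15.1 CPM) and *Col1a2* (14.5 CPM) were above every WT mouse. The part of meningeal and fibroblast content in the collagen levels was not tested. *Crabp2* had no counts in WT mouse 3, and the other 13 markers had counts in every library.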

How the data were processed

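RNA was sequenced from the hippocampus of 3 WT and 3 Ube3a m-/p+ mice. The deposited values were raw read counts per gene symbol, 1 table per mouse, which the authors made, per the submitters' processing notes, with STAR 2.7.4a and HTSeq on mm10. The annotation and strand setting are not given in the sources used here. CPM were computed on all gene counts of a library. Genotypes were compared with edgeR 4.0.16 (R 4.3.3) by the quasi-likelihood test with genotype as the only term, after its expression filter and TMM scaling, and p-values were adjusted by Benjamini-Hochberg over all 14445 genes tested. Calls needed an adjusted p under 0.05 with over 1.2-fold change. DESeq2 1.42.0, other scalings and filters, leaving out each mouse, the replicate number as a block, and removal, within every library, of the trend with GC content and length (natural splines, 5 degrees of freedom, longest GENCODE M21 transcript, GRCm38) were alternatives. A fit with *Ttr* as a covariate and the values of the mice numbered 1 alone were added after the data were seen. The members and gene lists were chosen with earlier results of these data known. Values of every mouse were given for members that were called or did not overlap between genotypes, the 3 with the highest CPM among fibrillar, type IV and type VI collagens, the highest in each other class, and chain partners. Values of further members were added after they were seen. Pathway genes were named if called or not overlapping, at most the 3 with the largest fold change per list, with exceptions stated beside them. Same-numbered mice deviated from their genotype means with correlations of -0.29 (-0.285), -0.18 (-0.177) and -0.31 (-0.311). These values cannot decide whether the numbers pair the mice, because the relation to GC content ran in opposite directions in mice 2 and 3 of the genotypes. The libraries of the mice numbered 1 were alike in that relation (Spearman's rho 0.045 in WT and 0.059 in Ube3a m-/p+). p-values measure the spread between these mice.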

Additional observations from a re-analysis of the deposited data

How the results depend on the processing

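The count of 3 differentially expressed collagen genes (3 higher, 0 lower) was 4 with DESeq2, 7 without a filter on low counts (6 higher, 1 lower), 1 after correction for GC content and length, 5 with *Ttr* as a covariate (5 higher), and 15 at an unadjusted p with the same fold (13 higher, 2 lower). Over all genes these settings called 953, 1176, 92, 310 and 2831, beside 290 in the reported fit. DESeq2 gave an adjusted p to 9567 genes but to only a minority of the 38 tested collagen genes, and it could not call the others. Leaving out 1 mouse gave 0 to 8 calls, 0 to 7 of them higher and 0 to 1 lower, with 0 without WT mouse 2, WT mouse 3 or Ube3a m-/p+ mouse 2, 1 without Ube3a m-/p+ mouse 3 and 8 without Ube3a m-/p+ mouse 1, where 0, 0, 0, 2 and 1816 of all genes were called. When the replicate number was added as a block, 0 collagen genes and 0 of all genes were called by edgeR (2422 of all at an unadjusted p below 0.05), and the log2 fold change of *Col6a1* was 1.17 (edgeR adjusted p = 0.101). With the block and the GC correction together 1 was called, *Col6a1* (edgeR adjusted p = 0.000848). The median log2 fold change of the collagens, 0.36, was 0.359 with the block alone, 0.179 with the GC correction, 0.182 with both and 0.20 to 0.47 without 1 mouse. That of the fibrillar collagens, 0.28, was 0.279 with the block alone, 0.134 with the GC correction, also with the block added, and 0.18 to 0.415 without 1 mouse. Members that missed the threshold changed sign in some fits. With the GC correction alone and with the block added, *Col5a1* was at -0.035 and -0.085, *Col15a1* at -0.036 and -0.041, and *Col25a1* at 0.01 and 0.004. *Col4a5* was at -0.018 with *Ttr*. Without 1 mouse the values ran from -0.258 to 0.399 for *Col5a1*, from -0.132 to 0.403 for *Col4a5*, from -0.043 to 0.749 for *Col6a3* and from -0.104 to 0.295 for *Col15a1*. The causes were not tested. With 3 mice per genotype and members at 5 to 43 counts left untested, differences of low members were not detectable at this depth.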
